A study of Mus musculus with 6 samples.

Results

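The genes for translation initiation factors (eIFs) and elongation factors (eEFs), with the enzymes and binding proteins named for them, were compared between control and FGFR2 KO cells of the mouse mammary carcinoma line 4T1. Members were taken by symbol from the gene count table: a symbol had to begin with Eif and a digit from 1 to 6, or with Eef and 1 or 2. Of 31017 rows in the table, 69 matched. Eif2ak2 and Eef1e1 were set aside by the rule, and no matching symbol ended in -ps, so 67 genes remained. Of these, 60 had enough counts to be tested.

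4T1 is an established line of breast cancer cells in wide use as a transplantable tumour model. The 3 control libraries came from cells nucleofected with Cas9 and control guide RNAs, and the 3 KO libraries from cells nucleofected with Cas9 and guides against FGFR2, a cell surface receptor of fibroblast growth factors. For all 6 libraries the cells were grown in collagen I droplets under medium with serum and released with collagenase before RNA extraction. Libraries were prepared from mRNA with a stranded kit, and the values are read counts per gene. The labels name a pair of collagen I concentrations (1.2 and 2.4 mg/ml) without saying which library had which, and they do not say whether the KO cells were a pool or 1 clone. They number the replicates but do not state separate cultures, so the p-values reflect only how far these libraries vary, and that variation may be technical.

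Translation starts when eIF2 carries the initiator tRNA to the small ribosomal subunit, eIF3 and the scanning factors hold that complex together, and the eIF4 proteins load it onto a capped mRNA. eIF2B recharges eIF2 with GTP between rounds. The eIF2 kinases block that recharging under stress, and the 4E-BPs withhold the cap-binding protein eIF4E when mTORC1 is inactive. During elongation eEF1A delivers aminoacyl-tRNAs, the eEF1B subunits recharge eEF1A, and eEF2 moves the ribosome along.

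The 6 libraries held between 15531790 and 20447719 counts, and 12158 genes passed the filter on low counts. Between-library variation within a group was small, with a biological coefficient of variation of 4%. All 4 epithelial markers (Krt8, Krt18, Epcam and Cdh1) were present, with a summed level of 3744 to 3856 CPM (counts scaled to library size) in control and 3049 to 3149 in KO libraries. Krt18, Epcam and Krt8 fell by 0.61, 0.42 and 0.16 on the log2 scale, while Cdh1 rose by 0.25. The summed level of leukocyte markers was 13.9 to 15.9 CPM in control and 5.99 to 8.49 in KO libraries; most of it was Cd68, with Csf1r next, and Adgre1 and Cd3e were at 0. The 6 fibroblast markers summed to 36.3 to 38.2 CPM in control and 39.7 to 45.4 in KO libraries, mostly Pdgfra, with Lum at 0, and the 4 endothelial markers to at most 0.588 CPM, with Kdr and Tek at 0. The part of these markers in the results below was not tested. In bulk samples, fewer cells of a type and less RNA per cell cannot be told apart. Fgfr2 itself was at 96.9, 95.9 and 106 CPM in control and 101, 81.2 and 95.2 CPM in KO libraries (log2 fold change -0.11, adjusted p = 0.113). The guides' position is not given in the sources used here, so this level does not check the label.

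The factors changed in both directions and by small amounts. Of the 60 tested, 25 were higher in KO, 10 were lower and 25 did not pass an adjusted p of 0.05 (edgeR's quasi-likelihood test with Benjamini-Hochberg adjustment over all tested genes). That is 58.3% of the factors, beside 54.6% of all tested genes, so the share that changed was near the background. Among all tested genes 27.1% were higher and 27.5% lower in KO. KO over control, the factors had a median log2 fold change of 0.06 and all tested genes had -0.0061. The median absolute log2 fold change was 0.14 for the factors and 0.21 for all tested genes. Every tested factor lay within 0.5 on the log2 scale, as did 80.2% of all tested genes. CPM of the 3 KO libraries lay all above or all below the 3 control libraries for 39 of 60 factors (65%), against 59.5% of all tested genes.

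**Figure D1:**
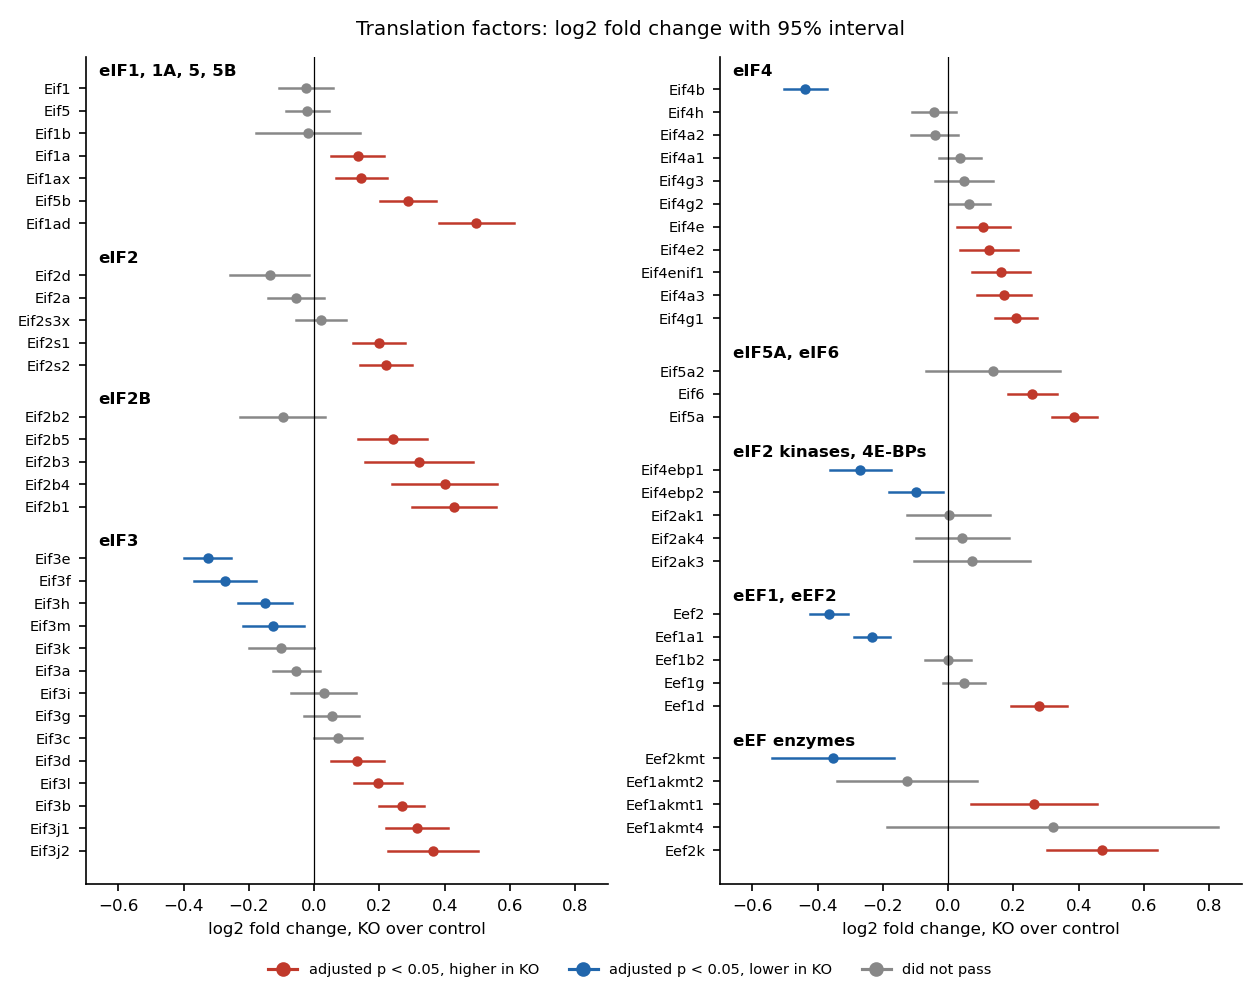
Log2 fold change (x axis, KO over control) with its 95% interval for each of the 60 tested factors, grouped by complex. Red marks the 25 factors that were higher in KO, blue the 10 that were lower and grey the 25 that did not pass; eIF2B lies mostly to the right of 0, while eIF3 and the elongation factors lie on both sides.

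**Figure D2:**
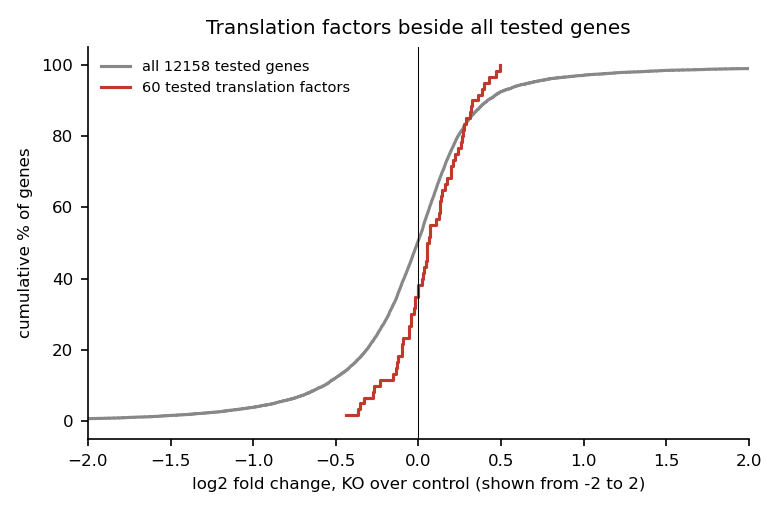
Cumulative percentage of genes (y axis) by log2 fold change, KO over control (x axis, shown from -2 to 2), for all 12158 tested genes (grey) and the 60 tested factors (red). The red curve ends within 0.5 on both sides, while the grey curve has tails beyond it.

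When a minimum fold change of 1.2 was built into the test, 7 of 60 factors passed. That is a smaller share than among all tested genes, where 2564 of 12158 passed (21.1%). Eef2k, Eif1ad, Eif2b1 and Eif5a were higher in KO, and Eef2, Eif3e and Eif4b were lower. With a minimum fold change of 1.5 no factor passed, and none did at an unadjusted p under 0.05. That test was run in edgeR only.

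The background for the counts in each group below is 27.1% higher and 27.5% lower among all tested genes. Among 7 genes of the scanning, start-codon and subunit-joining factors, 4 rose, none fell and 3 did not pass, with a median log2 fold change of 0.13. Eif1ad (chr19:5366741-5371526 in mm10) stands in this group by its name, which refers to an eIF1A-like domain. Whether it acts in scanning was not tested. Eif1ad had 47.3, 51.7 and 52.7 CPM in control and 66.3, 72.7 and 74.6 CPM in KO libraries. The groups did not overlap, and Eif1ad rose by 0.50 on the log2 scale (SE 0.057, adjusted p = 2.15e-09), the largest difference among the 60 tested factors. Its exons share 428 bases with Banf1 on the opposite strand, and the strand setting of the counting is not given in the sources used here. Eif5b, the GTPase that joins the ribosomal subunits, rose from 351 ± 7.82 to 429 ± 38.3 CPM (mean ± SD, n = 3; log2 fold change 0.29). It shares 1643 exon bases with Rev1 on the opposite strand. The paralogs Eif1a and Eif1ax encode eIF1A, which holds the scanning complex open. They rose together, by 0.13 and 0.14, and their count ratio was 0.658 ± 0.0258 in control and 0.652 ± 0.0178 in KO libraries, with overlapping groups. Eif1, which guards start codon choice, was at 754 ± 20.5 and 741 ± 68.1 CPM. Eif5, the activator of eIF2's GTPase, was at 494 ± 3.95 and 487 ± 1.61 CPM. Neither passed, nor did Eif1b.

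Of the 3 eIF2 subunits with counts, the alpha and beta subunits rose and the gamma subunit did not pass. Eif2s1 encodes the alpha subunit that the eIF2 kinases phosphorylate, and it had 161, 165 and 167 CPM in control against 184, 188 and 192 CPM in KO libraries (log2 fold change 0.20, adjusted p = 4.95e-05). Eif2s2, the beta subunit, had 246, 241 and 243 CPM against 294, 291 and 265 CPM (0.22, adjusted p = 1.12e-05). For both, all KO libraries lay above all control libraries. Eif2s3x, the X-linked gamma subunit, had a log2 fold change of 0.02 with a 95% interval from -0.056 to 0.099. Its Y-linked copy Eif2s3y had 0 counts in every library. The alternative initiator tRNA factors Eif2a and Eif2d had log2 fold changes of -0.05 and -0.14 and did not pass (adjusted p = 0.281 and 0.0503).

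eIF2B, the exchange factor that recharges eIF2, rose in 4 of its 5 subunits, with a median log2 fold change of 0.32. Eif2b1, the alpha subunit (chr5:124570213-124579131), had 33.0, 32.3 and 31.5 CPM in control and 44.7, 43.9 and 41.8 CPM in KO libraries. Eif2b4, the delta subunit (chr5:31187558-31193430), had 22.1, 20.04 and 22.7 CPM against 28.6, 29.9 and 26.8 CPM. Eif2b3, the gamma subunit (chr4:117019402-117087306), had 21.4, 20.9 and 21.4 CPM against 27.6, 28.2 and 23.8 CPM. In all 3 genes every KO library lay above every control library. The rises were 0.43 (SE 0.063, adjusted p = 4.54e-07), 0.40 (SE 0.079, adjusted p = 5.14e-05) and 0.32 (SE 0.081, adjusted p = 0.00102) on the log2 scale. Eif2b5, the catalytic epsilon subunit, rose by 0.24, from 66.4 ± 1.53 to 78.5 ± 4.91 CPM (n = 3). Eif2b2, the beta subunit, had 43.2 ± 3.73 and 40.5 ± 0.936 CPM with overlapping groups (adjusted p = 0.21). Without control replicate 3, whose value was the lowest of the controls, Eif2b2 passed as lower (log2 fold change -0.16, adjusted p = 0.04999). Eif2b4 shares 204 exon bases with Snx17 on the opposite strand.

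Levels of different genes can be compared only per length, here as CPM per kb of annotated exon. On that scale the eIF2B subunits in control libraries ran from 25.6 for Eif2b5 to 3.25 for Eif2b3. In KO libraries they ran from 30.3 to 4.07. Eif2b2 was next to Eif2b5 in control libraries at 22.9 ± 1.98, and Eif2b1 followed at 12.5 ± 0.291 and Eif2b4 at 8.31 ± 0.528. The eIF3 subunits ran from 236 for Eif3h to 11.4 for Eif3j2. Eif3b at 121 ± 2.802 and Eif3a at 119 ± 3.06 were closer to each other than their spread. The per-kb scale uses every annotated exon of a gene, whichever transcript these cells make, so the order is approximate.

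**Figure D3:**
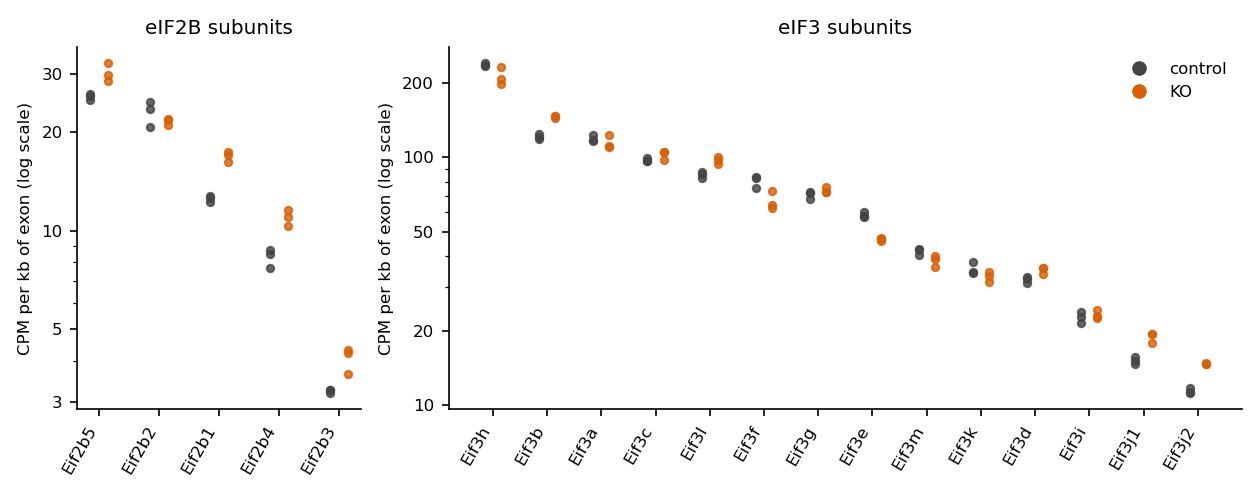
CPM per kb of exon (y axis, log scale) in each of the 3 control (grey) and 3 KO (orange) libraries for the 5 eIF2B subunits (left) and the 14 eIF3 genes (right), ordered by the control level. KO points lie above control points for Eif2b5, Eif2b1, Eif2b4 and Eif2b3, and below them for Eif3e and Eif3f.

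eIF3 is the large scaffold of the initiation complex. Of its 14 genes 5 rose, 4 fell and 5 did not pass, with a median log2 fold change of 0.04. That is 64.3% changed, beside 54.6% of all tested genes, which also changed in both directions. Eif3e fell (chr15:43250058-43282719), from 403, 391 and 387 CPM in control to 309, 316 and 317 CPM in KO libraries. The groups were far apart beside their spread, and the difference was -0.33 (SE 0.035, adjusted p = 3.93e-10). Eif3f, Eif3h and Eif3m also fell, by 0.27, 0.15 and 0.12 on the log2 scale. Both genes for eIF3j, the loosely bound subunit at the mRNA channel, rose. Eif3j1 (chr2:122028546-122056598) had 88.4, 85.7 and 91.6 CPM in control and 113, 113 and 104 CPM in KO libraries (0.31, adjusted p = 5.41e-07). Eif3j2 had 26.9, 27.9 and 26.8 CPM against 34.8, 34.9 and 35.3 CPM (0.36, adjusted p = 2.41e-05). Neither gene's groups overlapped. The pair are near-identical copies, so reads may be divided between them by the counting rule, and Eif3j1 shares 1107 exon bases with Spg11 on the opposite strand. Eif3b rose from 406 ± 9.52 to 489 ± 3.91 CPM (0.27), Eif3l by 0.20 and Eif3d by 0.13, the last with 2151 exon bases shared with the antisense model Gm17638.

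The subunits were also divided by their place in the complex, a division chosen after their values were seen and so given without a test. Beside either part, 27.1% of all tested genes were higher and 27.5% lower in KO. The octamer of subunits with PCI or MPN domains (Eif3a, Eif3c, Eif3e, Eif3f, Eif3h, Eif3k, Eif3l and Eif3m) had 1 higher, 4 lower and 3 that did not pass, with a median of -0.11. The other 6 genes (Eif3b, Eif3d, Eif3g, Eif3i, Eif3j1 and Eif3j2) had 4 higher, none lower and 2 that did not pass, with a median of 0.20. Eif3j1 and Eif3j2, both among the higher, are near-identical genes for the same subunit, so their rises may not be separate. Single libraries or the tool decided some calls near the threshold. Eif3m did not pass without control replicate 1 (adjusted p = 0.0740), control replicate 3 (0.0862) or KO replicate 1 (0.146), nor in DESeq2 (0.0645). Eif3a passed as lower without KO replicate 1 (0.00716), Eif3k as lower without KO replicate 2 (0.0351) and Eif3c as higher without KO replicate 3 (0.0137).

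The eIF4 group holds the cap-binding proteins, the eIF4G scaffolds, the eIF4A helicases and their helpers. Of 11 tested, 5 rose, 1 fell and 5 did not pass, so 54.5% changed beside 54.6% of all tested genes. The median log2 fold change was 0.07. The gene that fell was Eif4b (chr15:102073773-102097173), which stimulates the helicase and is phosphorylated by S6 and RSK kinases. It had 840, 855 and 881 CPM in control and 645, 632 and 625 CPM in KO libraries, with no overlap and a difference of -0.44 (SE 0.033, adjusted p = 3.5e-14). This was the lowest log2 fold change among the 60 tested factors. Its relative Eif4h was at 523 ± 2.53 and 507 ± 14.03 CPM and did not pass.

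Among the scaffolds, Eif4g1 rose from 899, 906 and 953 CPM to 1068, 1058 and 1059 CPM (0.21, adjusted p = 9.41e-07). Eif4g2, which lacks the eIF4E binding site, had 834, 860 and 859 CPM in control and 895, 892 and 884 CPM in KO libraries and did not pass in edgeR (adjusted p = 0.0786), though it did in DESeq2 (0.0229) and limma-voom (0.0491). Eif4g3 had 125, 134 and 134 CPM against 142, 134 and 130 CPM and did not pass. The count ratio of Eif4g2 to Eif4g1 was 0.927, 0.9496 and 0.901 in control and 0.838, 0.844 and 0.834 in KO libraries. That of Eif4g3 to Eif4g1 was 0.139, 0.148 and 0.140 against 0.132, 0.127 and 0.123. Both ratios were lower in every KO library than in any control library.

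The helicase genes Eif4a1 and Eif4a2 did not pass. Eif4a1 had 1520, 1522 and 1423 CPM in control and 1514, 1546 and 1517 CPM in KO libraries, and Eif4a2 had 636, 620 and 587 CPM against 570, 607 and 614 CPM. Groups overlapped for each gene alone. The ratio of Eif4a2 to Eif4a1 did not overlap, at 0.418, 0.407 and 0.412 in control and 0.376, 0.393 and 0.405 in KO libraries. The difference of their log2 fold changes was -0.077, and no paralog ratio was tested. Lack of overlap was common, as 59.5% of all tested genes had it in their own CPM. Groups overlapped for the ratios of Eif1b to Eif1, Eif3j2 to Eif3j1 and Eif4e2 to Eif4e. Exons of Eif4a2 share 617 bases with genes on the same strand, among them the small nucleolar RNAs Snord2 and Snora81. They share 194 bases with Rfc4 on the opposite strand. Exons of Eif4a1 share 287 bases with Gm24029 and Gm22988 on the same strand. Eif4a3, a core protein of the exon junction complex, rose by 0.17.

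The cap-binding protein gene Eif4e rose by 0.11 (187 ± 7.13 to 201 ± 5.57 CPM, adjusted p = 0.0213) and Eif4e2, its relative that represses bound mRNAs, by 0.13 (adjusted p = 0.0141). Eif4enif1, which carries eIF4E into the nucleus, rose by 0.16. Eif4e did not pass without control replicate 2 (adjusted p = 0.159) or KO replicate 2 (0.0735), nor with upper quartile scaling (0.0685). Eif4e2 did not pass without control replicate 3 (0.0542) or KO replicate 1 (0.0537). Eif4e1b and Eif4e3 had 0 counts in every library.

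Eif5a and Eif6 rose. Eif5a encodes the hypusine-bearing factor that helps ribosomes through slow peptide bonds, and in control libraries it was, after Eef1a1 and Eef2, the most abundant member per length (431 ± 15.1 CPM per kb). It lies at chr11:69916714-69921958. Its level was 1035, 1056 and 985 CPM in control and 1271, 1391 and 1361 CPM in KO libraries. All KO libraries stood above all controls, and the rise was 0.39 (SE 0.034, adjusted p = 4.71e-12). The paralog Eif5a2 had 14.5, 15.6 and 13.8 CPM in control and 17.4, 13.9 and 17.1 CPM in KO libraries and did not pass. The count ratio of Eif5a2 to Eif5a was 0.0140, 0.0148 and 0.0140 in control and 0.0137, 0.00999 and 0.0126 in KO libraries, all below the controls. Eif6, which keeps free large subunits from joining too early, rose by 0.26, from 185 ± 2.49 to 221 ± 3.87 CPM (n = 3).

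The eIF2 kinases and 4E-BPs, the inhibitory side of initiation, as the member rule takes them, held no gene that rose: 2 of 5 tested fell and 3 did not pass, and the median log2 fold change was 0.0010. Eif2ak2, the RNA-activated eIF2 kinase, is left out by that rule, and it rose by 0.15 (adjusted p = 0.0161). The other kinase genes lay close to 0. Eif2ak1, the heme-sensing kinase HRI, had 40.3, 40.6 and 43.6 CPM in control and 41.5, 39.1 and 43.8 CPM in KO libraries. Eif2ak3, the endoplasmic reticulum kinase PERK, had 21.1, 22.7 and 18.9 CPM against 22.0, 20.3 and 24.0 CPM. Eif2ak4, the amino acid sensor GCN2, had 34.3, 33.4 and 34.0 CPM against 38.8, 33.8 and 32.4 CPM. The groups overlapped for each of these 3 kinases. Their 95% intervals for the log2 fold change ran from -0.13 to 0.13 for Eif2ak1, from -0.10 to 0.25 for Eif2ak3 and from -0.098 to 0.19 for Eif2ak4. Differences of those sizes were not resolved here, and the kinases act through phosphorylation, which counts do not measure.

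Both tested 4E-BP genes fell. Eif4ebp1 had 126, 130 and 117 CPM in control and 98.7, 107 and 104 CPM in KO libraries, with no overlap (log2 fold change -0.27, SE 0.046, adjusted p = 6.41e-06). Eif4ebp2 had 144, 144 and 144 CPM against 137, 131 and 136 CPM, also without overlap (-0.10, adjusted p = 0.0378). The call of Eif4ebp2 was fragile. It was lost without control replicate 1 (0.0760), 2 (0.0922) or 3 (0.0770) and without KO replicate 2 (0.144) or 3 (0.0560), as well as in DESeq2 (0.0785), without a filter on low counts (0.0848) and with the replicate number as a block (0.0520). The count ratio of Eif4ebp2 to Eif4ebp1 was 1.16 ± 0.0669 in control and 1.31 ± 0.0831 in KO libraries, with overlapping groups. Eif4ebp3 had 32 counts over all libraries and was not tested.

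Of the 5 tested elongation factor genes, 1 rose, 2 fell and 2 did not pass, so 60% changed beside 54.6% of all tested genes. The eEF1A gene Eef1a1 and Eef2, the most abundant of all members per length, fell, while no tested subunit of the exchange factor eEF1B did. Eef1a1 had 10377, 10342 and 10692 CPM in control and 9015, 9041 and 8652 CPM in KO libraries (-0.23, SE 0.028, adjusted p = 3.93e-09). Eef2 (chr10:81176631-81182498) had 4165, 4229 and 4276 CPM against 3344, 3282 and 3215 CPM (-0.36, SE 0.029, adjusted p = 1.67e-13). In both genes the groups were separated by much more than their spread. Eef1a1 has processed pseudogenes, and the treatment of reads that map to several places is not given in the sources used here. Among the exchange subunits, Eef1d rose from 175 ± 0.571 to 212 ± 15.1 CPM (0.28, adjusted p = 7.95e-07), with 277 exon bases shared with Naprt on the same strand. Eef1b2 was at 544 ± 21.8 and 544 ± 12.9 CPM and Eef1g at 885 ± 9.50 and 916 ± 20.04 CPM, and neither passed. Eef1a2, the muscle and neuron isoform, had 0 counts throughout.

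Because Eef1a1 and Eef2 hold so many reads, the family's share of all counts went the other way from its median. The 67 genes took 3.06% ± 0.0248 of control and 2.89% ± 0.0525 of KO library counts (n = 3). Eef1a1 and Eef2 alone took 1.46% ± 0.0257 and 1.22% ± 0.0266. The other 65 genes took 1.599% ± 0.00247 and 1.67% ± 0.0276, and eIF5A with eIF6 took 0.122% ± 0.00361 and 0.158% ± 0.00606. In each of these 4 sets the control and KO libraries did not overlap.

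**Figure D4:**
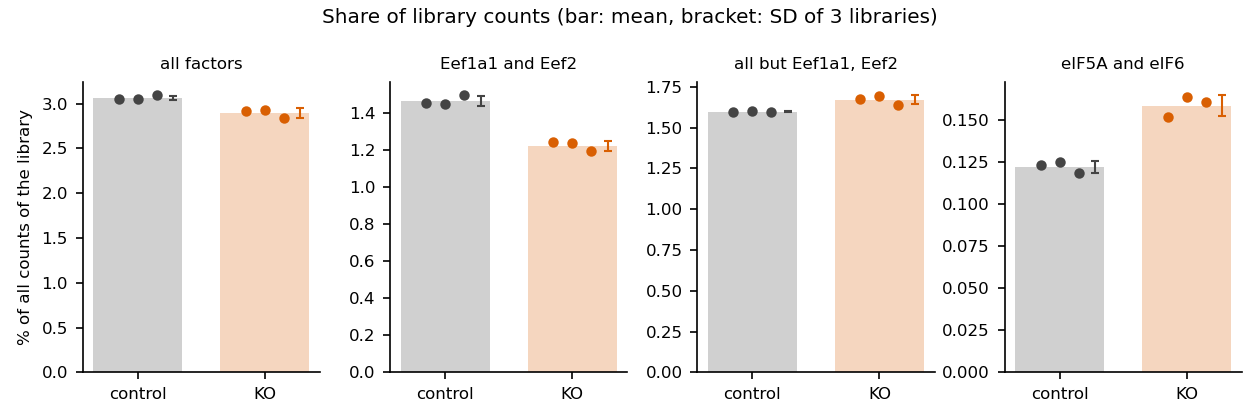
Share of all counts of a library (y axis, percent) taken by 4 sets of factor genes, with points for libraries, bars for the mean and brackets for the SD of 3 libraries. KO bars are lower for all factors together and for Eef1a1 with Eef2, and higher for the remaining genes and for eIF5A with eIF6.

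The enzymes that modify the elongation factors also changed in both directions, as did all tested genes (27.1% higher and 27.5% lower in KO). Eef2k, the kinase that inactivates eEF2 (chr7:120842831-120907450), rose from 20.6, 23.8 and 22.5 CPM in control to 30.5, 27.7 and 34.7 CPM in KO libraries (0.47, SE 0.083, adjusted p = 8.61e-06). Eef2kmt, which methylates eEF2 (chr16:5244152-5255983), fell from 19.2, 18.02 and 21.0 CPM to 15.6, 14.7 and 15.2 CPM (-0.35, SE 0.092, adjusted p = 0.00147). Neither gene's groups overlapped. So eEF2's own transcript and that of its methyltransferase were lower in KO while that of its kinase was higher. Eef2kmt shares 615 exon bases with Alg1 and Gm15983 on the opposite strand, and Eef2k shares 101 with Gm15774. Eef1akmt1, an eEF1A methyltransferase, rose by 0.26 (adjusted p = 0.019), but did not pass without KO replicate 2 (0.16, adjusted p = 0.193), without control replicate 3 (adjusted p = 0.0523) or in DESeq2 (0.0628). Eef1akmt2 and Eef1akmt4 did not pass, and Eef1akmt3, with 30 counts in all, was not tested. The last member, Eif2c5, is an Argonaute-related name rather than a translation factor, and it had 0 counts.

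**Figure D5:**
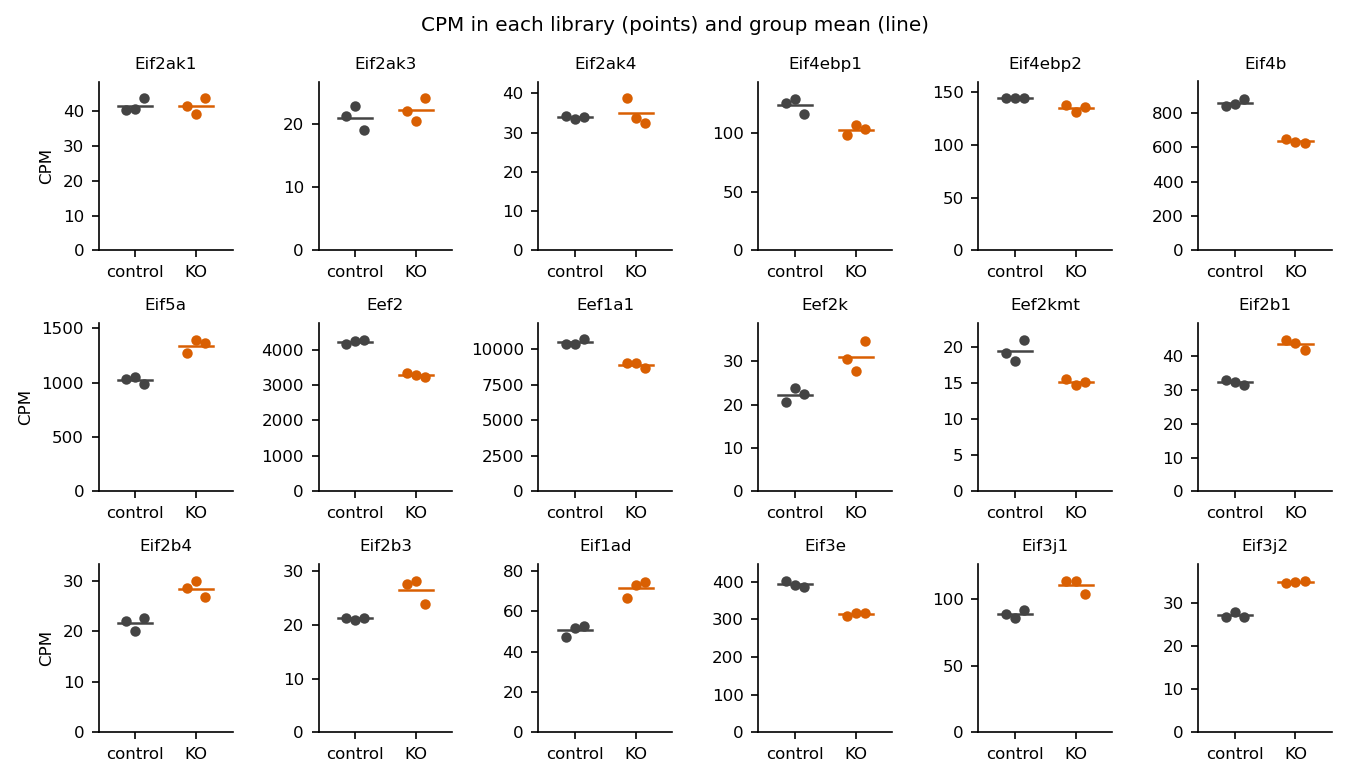
CPM (y axis from 0) in each control (grey) and KO (orange) library for 18 factors, with a line at each group's mean. The eIF2 kinases overlap between groups, while Eif4b, Eef2, Eef1a1, Eif3e and the 4E-BPs are lower and Eif5a, Eif1ad, Eef2k and 3 eIF2B subunits are higher in every KO library.

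Several genes of the protein synthesis machinery carry a terminal oligopyrimidine (TOP) tract at their 5′ end, a C followed by a run of C and T through which mTORC1 and LARP1 control their translation. Annotated protein-coding transcript starts (GENCODE M21, mm10) were searched on the transcript's strand for a C followed by at least 4 C or T. Such a start was annotated for 7 of 60 tested factors (11.7%) and for 4.51% of 11535 tested genes. A gene counted if any of its annotated starts matched, and some had several (7 for Eef1d, 5 for Eif4a2). Which start these cells use was not tested. Of these 7, 2 rose, 2 fell and 3 did not pass, beside 27.1% higher and 27.5% lower of all tested genes. The first 24 bases are shown for the 5 with the longest runs, which are in capitals, since genes with such runs included both directions. The remaining pair were Eif2s1, which rose, and Eif4a2, which did not pass. Eef1b2, Eef1d and Eif3f are classical TOP mRNAs, and Eif2s3x and Eif3m are shown beside them. They lie at chr1:63177130-63177153 (plus strand), chr15:75909283-75909306 (minus), chr7:108934417-108934440 (plus), chrX:94212628-94212651 (minus) and chr2:105017020-105017043 (minus) in that order.
Eef1b2: CTTTTTTTCCCTCagcgctggccg
Eef1d: CTCTCCTTTgcagtcctgagctcg
Eif3f: CTCTTTCTCggcaagatggcttct
Eif2s3x: CTTTTCTCTCCgagcaagatggct
Eif3m: CTTTTCCggtcggcgtgtttctgg
Eif3f and Eif3m fell, Eef1d rose, and Eef1b2 and Eif2s3x did not pass.

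The annotated starts of Eef1a1, Eef1g, Eef2, Eif3e, Eif3h and Eif4b held no such run, which says only that those letters are not at the annotated first base. Members were also grouped by a textbook list of TOP mRNAs (Eef1a1, Eef1b2, Eef1d, Eef1g, Eef2, Eif3e, Eif3f, Eif3h and Eif4b), chosen after their values were seen and so given without a test. A list chosen this way cannot show whether TOP mRNAs moved as a class. Of these 9, 6 were lower, 1 was higher and 2 did not pass, beside 27.5% lower and 27.1% higher of all tested genes. Their median log2 fold change was -0.23. The lower members of the list were Eef1a1, Eef2, Eif3e, Eif3f, Eif3h and Eif4b. The other 51 tested factors had 24 higher, 4 lower and 23 that did not pass, with a median of 0.11. They include Eif2s1, Eif2s3x, Eif3m and Eif4a2, for which the search above found a run. Over all genes searched, the 520 with such a start had 138 higher, 168 lower and 214 that did not pass. Their median was -0.043, against 0.0041 for the genes without one. Of 80 tested ribosomal protein genes, taken by symbol, 55 were lower and 6 higher in KO, with a median of -0.13. The background was 27.5% lower and 27.1% higher among all tested genes. Ribosomal protein genes belong to the TOP class as well, but the search above found a run for only 20 of these 80. Many ribosomal protein genes have processed pseudogenes, so their counts are uncertain to the extent that reads map to several places.

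Promoters (RefSeq, GRCm38.p6, from 250 bases before to 50 after the start) were available for 48 tested factors and 9403 tested genes. Each was searched on both strands for 5 motifs. Some genes had several promoters (12055 in all), and a gene counted if any of them held the motif. The E-box CACGTG, bound by MYC, USF and TFE3 family factors, was found for 13 factors (27.1%) and 11.96% of the genes. Of those 13, 4 rose, 2 fell and 7 did not pass, beside 27.1% higher and 27.5% lower of all tested genes. The ETS motif CCGGAAGT was found for 9 factors (18.8%) and 9.67% of the genes. Of those 9 factors, 5 were higher, none lower and 4 did not pass, beside 27.1% higher and 27.5% lower of all tested genes. Over all genes with a promoter, the median log2 fold change was 0.033 with the ETS motif and -0.0071 without it. For the E-box these medians were 0.015 and -0.0043. The half-site TGACGT was found for 9 (18.8%) against 13.6%. The full cyclic AMP response element TGACGTCA, which contains that half-site, was found for 1 (Eef2) against 3.8%. The ATF4 composite TTGCATCA was found for none against 0.69%. No other pair of these motifs contains one another. A match describes the letters and is not a measured binding site.

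Stretches of 50 bases around the E-box, which is in capitals, are shown for 3 factors that rose and 2 that fell. The same motif stood before genes of both directions, and 7 of the 13 factors with it did not pass. On the plus strand they lie at chr7:120842778-120842827 for Eef2k, chr16:20672651-20672700 for Eif4g1, chr10:81176566-81176615 for Eef2 and chr7:108934325-108934374 for Eif3f, and on the minus strand at chr11:69921433-69921482 for Eif5a.
Eef2k: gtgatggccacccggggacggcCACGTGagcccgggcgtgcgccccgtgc
Eif4g1: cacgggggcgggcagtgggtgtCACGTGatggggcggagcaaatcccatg
Eif5a: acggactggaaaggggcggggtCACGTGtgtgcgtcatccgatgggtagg
Eef2: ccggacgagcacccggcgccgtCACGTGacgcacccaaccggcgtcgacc
Eif3f: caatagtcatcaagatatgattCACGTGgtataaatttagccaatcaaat
Eef2k, Eif4g1 and Eif5a rose, and Eef2 and Eif3f fell.

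Genes that act beside the factors were read from lists of partners and regulators. The background for the counts in each list is 27.1% higher and 27.5% lower among all tested genes. Of 16 poly(A)-binding proteins, helicases, eIF4 kinases and inhibitors, 5 rose, 5 fell and 6 did not pass. Mknk2, a kinase of eIF4E, fell from 166 ± 4.19 to 108 ± 5.17 CPM (-0.63, adjusted p = 4.29e-15), and Pabpc1, the cytoplasmic poly(A)-binding protein and itself a TOP mRNA, fell by 0.38. Dhx29, a helicase of the scanning complex, rose by 0.48, and Larp1, the repressor of TOP mRNAs, by 0.22. Of 7 tested termination, recycling and hypusination genes, 4 rose and none fell. The recycling factor Abce1 rose from 247 ± 2.04 to 316 ± 8.64 CPM (0.35), the release factors Gspt1 and Etf1 by 0.30 and 0.25, and Dhps, which begins the hypusine modification of eIF5A, by 0.16.

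The integrated stress response is the program that follows phosphorylation of eIF2. Of 17 listed genes 9 rose, 4 fell and 4 did not pass, with a median log2 fold change of 0.15. By comparison, 27.1% of all tested genes were higher and 27.5% lower in KO. Nupr1 rose by 1.39 (90.4 ± 1.39 to 237 ± 9.40 CPM), Atf5 by 0.74 and the serine synthesis enzyme Phgdh by 0.50, while the mTORC1 inhibitor Ddit4 fell by 0.60. Eif2ak2 is among those that rose. Further genes were picked after their values were seen: Atf4 was at 298 ± 5.54 and 295 ± 10.6 CPM and did not pass, its target Ddit3 fell by 0.20, and Ppp1r15a, which directs dephosphorylation of eIF2, rose by 0.71. The list's members thus moved in both directions around an Atf4 transcript that did not pass.

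Of 18 mTORC1 and S6 kinase genes, 5 rose, 7 fell and 6 did not pass, with a median log2 fold change of 0.0022. Beside them, 27.1% of all tested genes were higher and 27.5% lower in KO. Deptor, an mTOR inhibitor, fell from 122 ± 2.98 to 91.3 ± 1.34 CPM (-0.42), Tsc1 by 0.30 and the RSK kinase gene Rps6ka3 by 0.23. Rragd rose by 1.86, from 0.297 ± 0.163 to 1.09 ± 0.428 CPM, a low level with few counts behind it.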

How the data were processed

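The values are whole-number counts per gene, deposited by the authors with no normalization, 1 column per library, and 0 columns belonged to no sample. STAR 2.7.9a, featureCounts, FastQC 0.11.9 and R 4.1.1 were used, per the submitters' processing notes, which name the builds hg38 and mm10 with no role. Not given in the sources used here are the annotation release, the strand setting and the treatment of reads over several genes or places.

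The deposited counts were fitted in edgeR 4.0.16 (R 4.3.3): filterByExpr (minimum count 10, minimum total 15), TMM scaling, glmQLFit and glmQLFTest with group as the only term, over all 12158 genes passing the filter, with Benjamini-Hochberg adjustment. CPM use TMM-scaled totals, log2 fold changes a prior count of 0.125, and intervals a confidence level of 95%. Each SE was back-computed as the absolute log2 fold change over the square root of the test's F statistic. The intervals were built from that SE and a t quantile. In these libraries 3 counts correspond to 0.147 to 0.193 CPM. Alternatives used DESeq2 1.42.0, limma 3.58.1 (voom), other scalings and filters, minimum fold changes, a replicate block and leaving out each library. The fit was checked on simulated counts. Replicates within a group differed by more than sampling noise (chi-square per degree of freedom 2.29 to 4.87), so none was counted once with another. Positions and exon lengths are from GENCODE M21. By that annotation 12 tested members had an exon overlapped by a gene on the same strand and 17 on the opposite strand. Not every overlap is named above.

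The members and lists were chosen with earlier results of these data known. Every tested member could be named. Values in each library were given for the eIF2 kinases, the 4E-BPs, paralog pairs that moved apart and the 12 changed members with the largest fold changes and at least 5 CPM. Of each pathway list the 4 genes with the smallest adjusted p were named.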

Additional observations from a re-analysis of the deposited data

How the results depend on the processing

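A minimum fold change of 1.2 left 2564 genes, 4 factors higher and 3 lower, and one of 1.5 left 907 genes and 0 factors in either direction, by construction of a stricter test. Leaving out 1 library gave 5922 to 6276 genes, 23 to 26 factors higher and 8 to 10 lower. The replicate numbers did not pair the libraries (correlations of same-numbered libraries -0.0294, -0.00317 and -0.0642), and the replicate block gave 6443 genes, 25 factors higher and 9 lower. DESeq2 called 25 factors higher and 8 lower, limma-voom 26 and 10, and upper quartile scaling 24 and 12, with a shift of the median gene by -0.0225. With upper quartile scaling Eif2d (adjusted p = 0.0232) and Eif3k (0.0319) passed as lower, and Eif2d passed with the filter of 5 CPM (0.0352). Scaling by TMM without the factors themselves, chosen after seeing the data, gave 25 and 10.

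Log2 fold changes near 0 turned sign, none of them past the threshold in either fit; the cause was not tested. Eef1b2 became 0.0041 in DESeq2, 0.0020 with RLE scaling, 0.0063 with no filter, and 0.0035, 0.025 and 0.020 without control replicate 2, control replicate 3 and KO replicate 3. Eif2ak1 became -0.021 with upper quartile scaling, -0.0078 with a filter of 5 CPM, -0.0026 with the replicate block, and -0.019, -0.014 and -0.040 without control replicate 1, control replicate 2 and KO replicate 3. Eif2s3x became -0.00099 with upper quartile scaling and -0.0044 without control replicate 1. Eif1 became 0.045 and Eif3i -0.00049 without KO replicate 3, Eif3i -0.0093 without control replicate 2, Eif1b 0.089 and 0.033 without control replicate 1 and KO replicate 1, and Eif2ak4 -0.033 without KO replicate 1. Depth limited Eef1akmt3 and Eif4ebp3, with 30 and 32 counts in all. At the other end, leaving out 1 library gave -0.032 for Eef1b2 and 0.068 for Eif3i (control replicate 1), -0.074 for Eif1b (control replicate 2), 0.047 for Eif2s3x (control replicate 3), -0.087 for Eif1 and 0.044 for Eif2ak1 (KO replicate 2) and 0.098 for Eif2ak4 (KO replicate 3).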
